A study of Triticum aestivum with 10 samples.

Results

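Starch synthesis in the wheat grain was represented on the array by 2 named genes, each with 1 probe set. LOC543299, AGP-S, encodes the small subunit of ADP-glucose pyrophosphorylase and was measured by Ta.242.1.S1_at. LOC543395, listed with the synonyms waxy, Wx-1 and GBSS-I, encodes granule-bound starch synthase and was measured by Ta.2795.1.S1_a_at. They were taken as all probe sets annotated to either gene, 2 of the 1273 probe sets with a gene symbol, among 61179 tested probe sets and 771 genes with a symbol.

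ADP-glucose pyrophosphorylase makes ADP-glucose, the sugar donor of starch synthesis, from glucose 1-phosphate and ATP, and is usually regarded as its committed step. The enzyme is built of small and large subunits, and in cereal endosperm most of its activity lies in the cytosol. Granule-bound starch synthase uses ADP-glucose inside the starch granule to build amylose, the nearly unbranched fraction of starch, and grains without its activity are called waxy because they lack amylose. The other fraction, amylopectin, is made by soluble starch synthases, branching and debranching enzymes.

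Seeds came from Redland, a winter wheat cultivar, whose seedlings all went through a cold period before growth in pots in a chamber, with fertilization timed floret by floret. The 10 arrays form 5 groups of 2: seeds of watered control plants 24 hours after fertilization (HAF), and, at both 48 and 72 HAF, seeds of plants kept without water (drought) and of watered controls. The labels place the start of drought at 24 HAF in one passage and at 48 HAF in another, so the length of drought behind the 48 HAF samples is unclear. Replicates are labelled as biological, with no plants or pots named, so p-values reflect only the spread between arrays, which may be technical, and the number of arrays limits the precision. Whole seeds hold endosperm, embryo and outer layers, and at these ages a difference can reflect a changed share of a tissue or a changed RNA level in its cells, which cannot be told apart here.

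The arrays did not group by treatment. At 72 HAF the closest array to drought replicate 1 was control replicate 2, at r = 0.996 over all tested probe sets. The most distant array was control 24 HAF replicate 2, whose r to the others was 0.811 to 0.898, with a BioB hybridisation control, a transcript added to every sample, at 11.9 on the log2 scale, against 4.01 to 6.97 elsewhere. Drought 72 HAF replicate 2 was next, with its highest r at 0.959, while the other 8 arrays correlated at 0.967 to 0.996. Control 72 HAF replicate 1 was closest to control 48 HAF replicate 2 (r = 0.982). Control 24 HAF replicate 2 was closest to drought 72 HAF replicate 2, and control 48 HAF replicate 2 to drought 48 HAF replicate 1. Whether all arrays carry the right treatment and time labels cannot be settled from these values. Each drought or time difference therefore holds for the arrays as labelled. Of the tissue markers, the 2 photosystem II subunits of green outer layers had a summed log2 level of 11.4 to 12.4. The 3 Em and LEA genes of the embryo summed to 5.03 to 6.11. Singly these 3 lay at 2.59 to 4.92, and as signal over background was not measured, they may not have been detected. The single pollen marker, a profilin that other plant tissues also express, lay at 12.4 to 12.6. The gliadin Gli-1 (LOC543214), a storage protein that defines endosperm, lay at 1.84 or lower on 6 arrays and at 7.55 to 8.73 on the other 4. Labelled as whole developing seed, the samples therefore carried green-tissue transcripts on all 10 arrays, while the gliadin Gli-1 was high on only 4. The endosperm list did not move as one: the avenin-like gene avnlb (LOC100125692) lay at 7.91 to 10.08 on all 10 arrays.

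AGP-S was among the brighter probe sets on every array, between percentiles 93.8 and 99.1 of the tested probe sets. At 24 HAF it read 10.02 and 8.38 on the log2 scale in control replicates 1 and 2. At 48 HAF it read 10.17 and 10.33 in drought seeds, against 10.10 and 10.19 in control seeds. All 4 arrays of 48 HAF thus lay close together, and drought and control overlapped. At 72 HAF it read 11.20 and 9.60 in drought replicates 1 and 2, against 9.58 and 11.34 in control replicates 1 and 2. Each treatment had 1 high and 1 low array at 72 HAF, and the low ones lay under all 4 arrays of 48 HAF while the high ones lay above them.

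The spread of AGP-S within a group was therefore very uneven. At 72 HAF the gap between its replicates was 3.02-fold in drought and 3.39-fold in control seeds, in opposite directions by replicate number. Only 4.45% of tested probe sets had a gap as large in drought seeds and 1.55% in control seeds, where the median gaps of all probe sets were 0.47 and 0.27 on the log2 scale. At 48 HAF its gap was 1.12-fold in drought and 1.07-fold in control seeds. At 24 HAF it was 3.12-fold, and 22.1% of probe sets had one as large, since control 24 HAF replicate 2 differed from replicate 1 in many probe sets.

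Waxy gave a nearly level signal. At 24 HAF it read 10.59 and 10.26 in control replicates 1 and 2. At 48 HAF it read 10.58 and 10.84 in drought seeds, against 10.68 and 10.82 in control seeds, and the groups overlapped. At 72 HAF it read 10.74 and 10.81 in drought seeds, against 10.70 and 10.68 in control seeds, where both drought arrays lay above both controls by a small margin. Its percentile on the arrays stayed between 98.0 and 98.5. The lowest and highest arrays differed 1.50-fold for waxy and 7.81-fold for AGP-S. Among the 887 probe sets whose mean level lay within 0.5 of that of waxy, 12.2% had a smaller SD over the 10 arrays than waxy (0.17), whereas 92.7% of the 1240 probe sets near the level of AGP-S had a smaller SD than AGP-S (0.84).

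**Figure D1:**
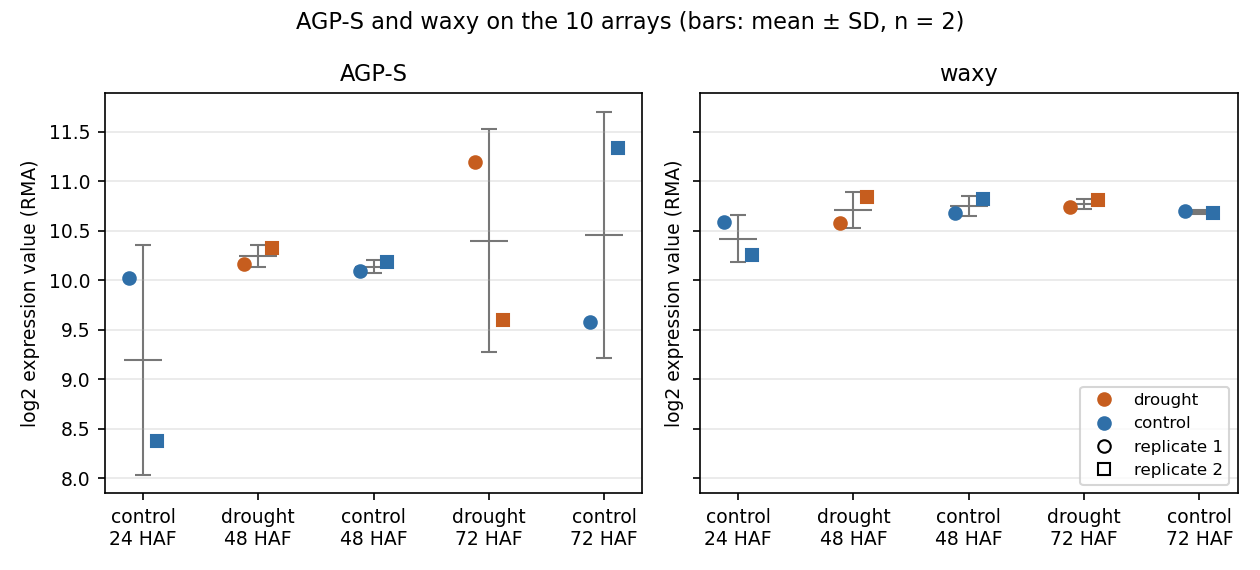
Log2 expression values of AGP-S (left) and waxy (right) on the 10 arrays, by treatment and time. Circles are replicate 1 and squares replicate 2, and grey bars give the mean ± SD of the 2 arrays. AGP-S at 72 HAF has 1 array near 9.6 and 1 above 11 in both treatments, while waxy lies between 10.26 and 10.84 throughout.

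Ordered by group mean, AGP-S was highest in control seeds at 72 HAF (10.46 ± 1.24, SD, n = 2), followed by drought 72 HAF (10.40 ± 1.13), drought 48 HAF (10.25 ± 0.11), control 48 HAF (10.14 ± 0.064) and control 24 HAF (9.20 ± 1.16). No neighbours in this order from 48 and 72 HAF differed beyond their spread, and the step down to 24 HAF rested on control 24 HAF replicate 2. Waxy was highest in drought 72 HAF (10.77 ± 0.054), followed by control 48 HAF (10.75 ± 0.10), drought 48 HAF (10.71 ± 0.19), control 72 HAF (10.69 ± 0.018) and control 24 HAF (10.42 ± 0.24). Its 4 groups of 48 and 72 HAF lay within the spread of the 2 arrays of drought 48 HAF.

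The first question of the design is what withholding water did to these genes. At 48 HAF, AGP-S averaged 10.25 in drought and 10.14 in control seeds, a difference of 0.11 (SE 0.74, 95% interval -1.57 to 1.79, limma adjusted p = 1). Waxy averaged 10.71 in drought and 10.75 in control seeds, a difference of -0.043 (SE 0.23, interval -0.58 to 0.49, adjusted p = 1). Neither gene passed the test, and 0% of the tested probe sets did, while 82 had an unadjusted p under 0.05. Neither gene had its drought arrays all on one side of the controls, as 31.3% of all probe sets did. The interval still holds changes of AGP-S down to 0.337-fold and up to 3.46-fold, and of waxy from 0.671-fold to 1.40-fold. It is wider for AGP-S because limma's spread is shared over all groups, and its arrays of 24 and 72 HAF were far apart.

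At 72 HAF, the AGP-S means were 10.40 in drought and 10.46 in control seeds, a difference of -0.061 (SE 0.74, interval -1.74 to 1.62, adjusted p = 1). That small value came from averaging 1 high and 1 low array on each side. Without drought replicate 1 the difference was -0.86 and without control replicate 1 it was -0.94, whereas without drought replicate 2 it was 0.74 and without control replicate 2 it was 0.82 (limma adjusted p = 0.919 to 1 in these fits). Waxy averaged 10.77 in drought and 10.69 in control seeds, a difference of 0.085 (SE 0.23, interval -0.45 to 0.62, adjusted p = 1). It lay higher on 2 of 2 drought arrays, a separation that 21.3% of all tested probe sets showed in one direction or the other. At this time, too, 0% of probe sets passed, with 252 at an unadjusted p under 0.05.

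**Figure D2:**
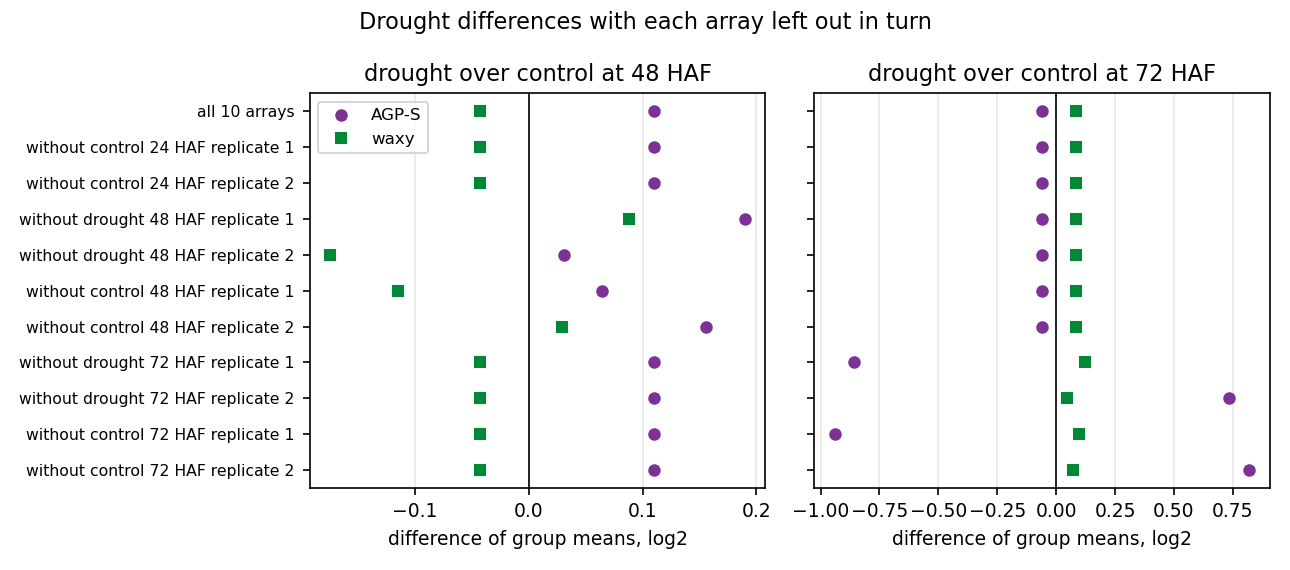
Differences of AGP-S (circles) and waxy (squares) between drought and control seeds at 48 HAF (left) and 72 HAF (right) in log2 units, with all 10 arrays and with each array left out in turn. The 2 panels have different horizontal scales. At 72 HAF the AGP-S difference moves from -0.94 to 0.82 depending on the array left out, and that of waxy stays between 0.047 and 0.12.

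Over both times, drought and control seeds differed by 0.025 in AGP-S (SE 0.52, interval -1.16 to 1.21) and by 0.021 in waxy (SE 0.17, interval -0.36 to 0.40), with a limma adjusted p of 1 for both. In fold terms the interval for waxy ran from 0.782 to 1.32, and that for AGP-S from 0.447 to 2.32. An exact permutation test within each time gave p = 0.778 for AGP-S and 0.722 for waxy, over 36 arrangements whose smallest possible p is 0.0556. The difference between the drought effects at 72 and 48 HAF was -0.17 for AGP-S (SE 1.04, interval -2.54 to 2.20) and 0.13 for waxy (SE 0.33, interval -0.62 to 0.88), adjusted p = 1 for both in limma. The 4 drought and 4 control arrays overlapped for both genes and were separated for 0.721% of all probe sets. None of the probe sets passed for the mean effect or for the difference (0% each), with 68 and 227 at an unadjusted p under 0.05. Direction was unstable where single arrays were left out: the mean effect of AGP-S was -0.42 without control 72 HAF replicate 1 and 0.46 without control 72 HAF replicate 2.

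The second question is how the genes moved as the seed developed. In watered seeds, AGP-S averaged 10.14 at 48 HAF and 9.20 at 24 HAF, a difference of 0.95 (SE 0.74, interval -0.73 to 2.63, limma adjusted p = 0.621). Waxy averaged 10.75 at 48 HAF and 10.42 at 24 HAF, a difference of 0.33 (SE 0.23, interval -0.20 to 0.86, adjusted p = 0.621). Both genes were higher on 2 of 2 arrays of 48 HAF than on either array of 24 HAF. Of all tested probe sets, 24.8% were separated in this way in one direction or the other, 0% passed the test and 907 had an unadjusted p under 0.05. In the fit without control 24 HAF replicate 2, the array that stood apart, the differences were 0.13 for AGP-S and 0.16 for waxy. Without replicate 1 they were 1.77 and 0.50 (limma adjusted p = 0.0894 and 0.135), in a fit where 25621 of the 61179 probe sets passed.

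For 72 against 48 HAF in watered seeds, AGP-S averaged 10.46 at 72 HAF and 10.14 at 48 HAF (0.32, SE 0.74, interval -1.36 to 1.99), and waxy 10.69 at 72 HAF and 10.75 at 48 HAF (-0.064, SE 0.23, interval -0.60 to 0.47), with a limma adjusted p of 1 for both. In drought seeds AGP-S averaged 10.40 at 72 HAF and 10.25 at 48 HAF (0.15, SE 0.74, interval -1.53 to 1.82, adjusted p = 0.991), and waxy 10.77 at 72 HAF and 10.71 at 48 HAF (0.064, SE 0.23, interval -0.47 to 0.60, adjusted p = 0.986). Arrays of 72 and 48 HAF overlapped for both genes in both treatments, whereas 33% of all tested probe sets were separated in control and 44.5% in drought seeds. Over both treatments the difference was 0.23 for AGP-S (interval -0.96 to 1.42, adjusted p = 0.984) and -0.00011 for waxy (interval -0.38 to 0.38, adjusted p = 1). The exact permutation test within treatments gave p = 0.667 for AGP-S and 1 for waxy, where 36 arrangements allow no p below 0.0556. In each of these 3 comparisons 0% of probe sets passed, with 187, 2470 and 2298 at an unadjusted p under 0.05.

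**Figure D3:**
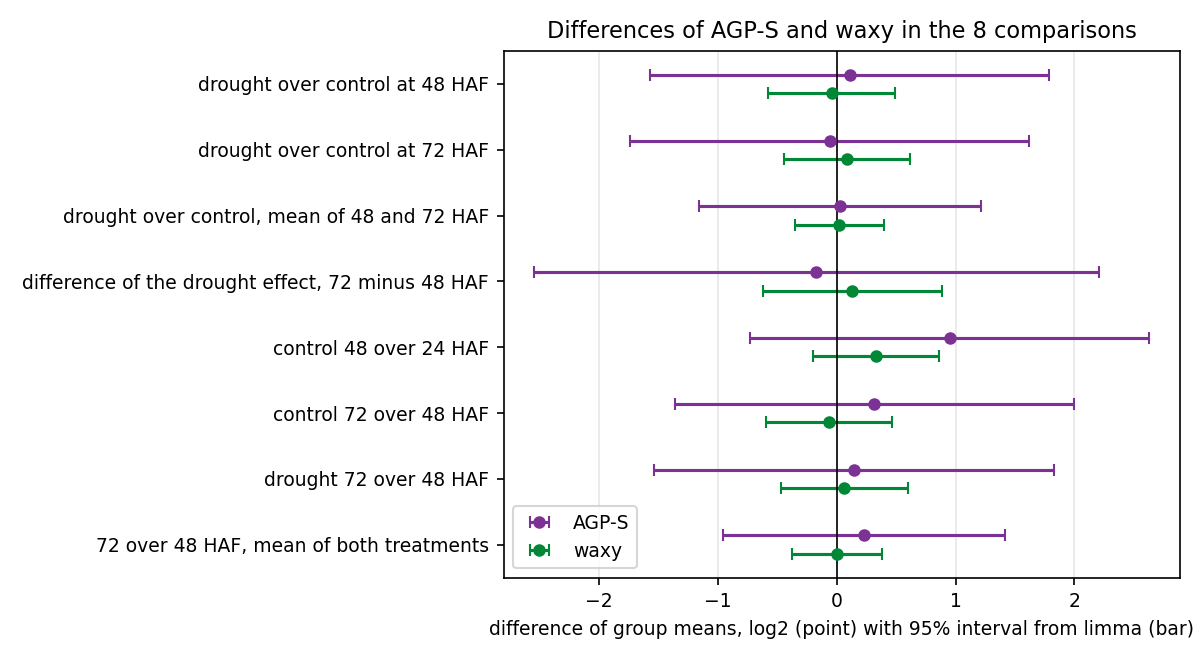
Differences of AGP-S (upper of each pair) and waxy (lower) in the 8 comparisons, in log2 units, with 95% intervals from limma. Each interval includes 0. The widest one of waxy runs from -0.62 to 0.88 and that of AGP-S from -2.54 to 2.20, both for the difference between the drought effects at 72 and 48 HAF.

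The high AGP-S arrays of 72 HAF also had the highest summed level of endosperm transcripts. The 8 endosperm markers, which are gliadins, a low molecular weight glutenin and avenin-like proteins, had a summed log2 level of 11.78 and 10.80 in drought replicates 1 and 2 at 72 HAF, against 9.70 and 11.75 in control replicates 1 and 2. On the other 6 arrays the sum lay between 10.05 and 10.24. This range includes control 24 HAF replicate 2, where higher and lower markers offset each other in the sum. Gli-8 (8.83), Glu-D3 (7.68) and Gli-1 (7.55) were higher there than on replicate 1 (5.04, 5.40 and 1.84). The avenin-like avnlb was lower, at 7.91 against 9.89. Control 24 HAF replicate 2 thus joined a high gliadin signal to the lowest AGP-S level (8.38). AGP-S and the endosperm sum were thus both at their highest in drought replicate 1 and control replicate 2 of 72 HAF, while drought 72 HAF replicate 2 had a high sum beside a low AGP-S level. On that array Gli-1 read 8.17, near the 8.62 and 8.73 of the high AGP-S arrays, and Glu-D3 7.32 against 7.33 and 6.97. Lower there were Gli-8 (9.16 against 10.21 and 10.13), avnlb (8.59 against 9.77 and 9.845) and avnla (6.30 against 8.58 and 8.43). On control 72 HAF replicate 1 Gli-1 read 1.595, and avnlb, at 9.50, made up most of the sum. Across arrays, AGP-S correlated with the endosperm sum at r = 0.65 (10 arrays) and 0.82 without control 24 HAF replicate 2 (9 arrays), a description over arrays that share times and treatments. For waxy the same values were 0.16 and 0.12. With the green-tissue sum, AGP-S correlated at 0.32 and 0.44 and waxy at 0.034 and 0.043. With the embryo sum, made of dim probe sets, the values were -0.68 and -0.25 for AGP-S and -0.63 and 0.17 for waxy. With the pollen marker they were -0.12 and -0.50 for AGP-S and 0.46 and 0.41 for waxy. The part of tissue composition in the AGP-S values was not tested.

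AGP-S and waxy correlated with each other at r = 0.59 over the 10 arrays. Without control 24 HAF replicate 2, the lowest array for both genes, r was -0.061 over 9 arrays.

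A second probe set, Ta.242.2.S1_at, shares the cluster number 242 with the AGP-S probe set in its array ID. It carries no gene symbol in the annotation, is no member, and was chosen after its values were seen. At 24 HAF it read 3.17 and 8.23 in control replicates 1 and 2. At 48 HAF it read 3.62 and 3.25 in drought seeds, against 3.32 and 3.21 in control seeds. At 72 HAF it read 10.83 and 8.78 in drought seeds, against 3.72 and 10.94 in control seeds. The signal was low on 6 arrays and high on 4, the same 4 arrays on which the gliadin Gli-1 was high.

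Its replicate gap in control seeds at 72 HAF was 149-fold, and 0.0164% of probe sets had one as large. All 4 arrays of 72 HAF lay above all 4 of 48 HAF, but control 72 HAF replicate 1 only just: 3.72 against 3.62 on drought 48 HAF replicate 1. Of all tested probe sets, 12.2% were separated between these times in one direction or the other, while AGP-S and waxy were not. The difference was 5.21 (SE 1.56, unadjusted p = 0.00931, limma adjusted p = 0.974). As the probe set was chosen after its values were seen, these p-values are descriptive only. The drought difference at 72 HAF was 2.47 (SE 2.21, adjusted p = 1). It correlated with the endosperm sum at r = 0.89 over 10 arrays and 0.95 over the 9 without control 24 HAF replicate 2. Its r over the same 10 and 9 arrays was 0.77 and 0.80 with the green-tissue sum, 0.47 and 0.48 with the embryo sum, 0.070 and 0.15 with the pollen marker, and 0.26 and 0.64 with the AGP-S probe set. Whether it reports a transcript of AGP-S was not tested.

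**Figure D4:**
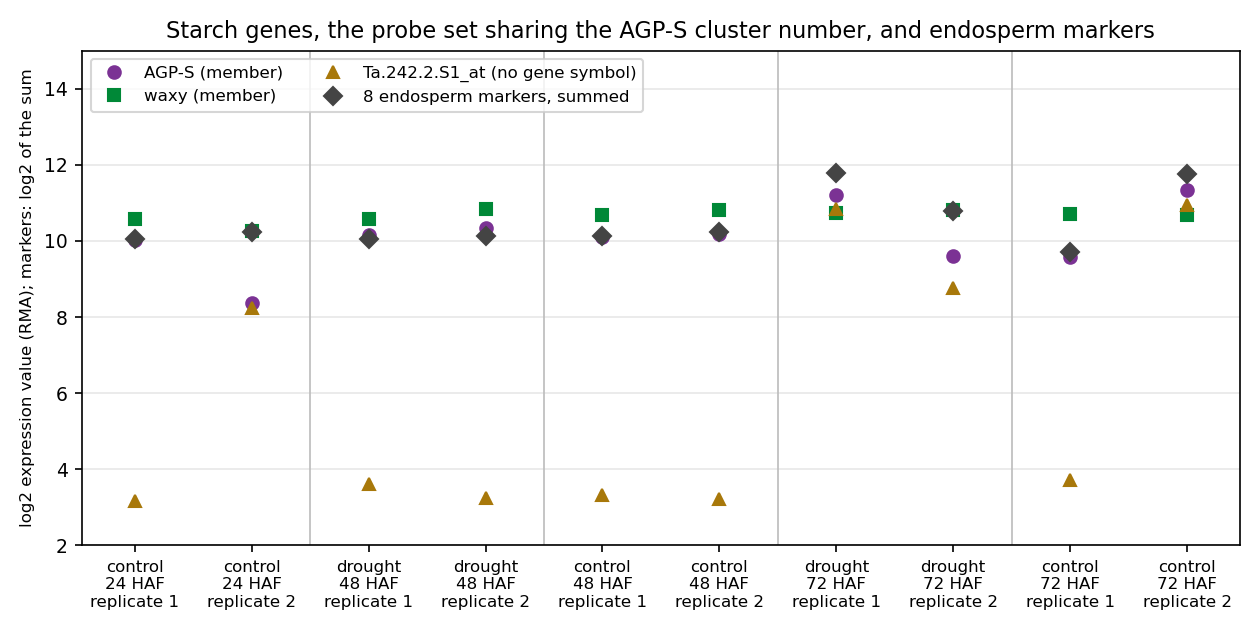
Log2 values on each array of AGP-S, waxy and Ta.242.2.S1_at, with the log2 of the summed level of 8 endosperm marker genes, in order of time. Heights of different probe sets are not comparable, so each symbol is to be followed across arrays. Ta.242.2.S1_at is near 3 to 4 on 6 arrays and above 8 on 4, AGP-S is high on drought 72 HAF replicate 1 and control 72 HAF replicate 2, and waxy stays level.

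The starch synthesis list, which also asked for other subunits of ADP-glucose pyrophosphorylase, soluble starch synthases, branching and debranching enzymes, starch phosphorylase and plastid transporters, held only AGP-S and waxy among readable symbols and synonyms. One supply gene and one breakdown gene could be matched beside them, and 0 of the 2 passed the test in any of the 8 comparisons. BMY1 (LOC543318), a beta-amylase, which removes maltose units from the ends of starch chains, at 72 HAF averaged 11.83 ± 0.42 in drought and 12.02 ± 0.32 in control seeds (SD, n = 2 each). At 48 HAF it averaged 12.15 ± 0.11 in drought and 12.19 ± 0.072 in control seeds, and it read 12.06 and 11.07 in control replicates 1 and 2 at 24 HAF. The beta-amylase signal was thus bright throughout and lowest on control 24 HAF replicate 2, as were both starch synthesis genes. That was the most distant array, and the waxy percentile on it was 98.0, against 98.1 on replicate 1. For AGP-S the percentiles were 93.8 and 96.9, and for BMY1 99.0 and 99.7. IVR1 (LOC543415), listed as an invertase, which splits sucrose, but also under the synonym atpA, lay at 2.34 to 4.63, mostly in the lower part of the scale. Signal over background was not measured, so IVR1 may not have been detected.

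By Pearson r over the 10 arrays, among 769 other annotated genes, those most like AGP-S were LOC542987 (0.975), LOC100037526 (0.952), LOC100037597 (0.944), LOC780662 (0.943) and LOC780660 (0.942). None of these has a readable name in the annotation. Over the 9 arrays without control 24 HAF replicate 2 their r was 0.881 to 0.949. Over all 61178 other probe sets, 657 had an r above 0.9 to AGP-S and 292 below -0.9. Without control 24 HAF replicate 2 these counts were 294 and 188.

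Most like waxy were LOC543228 (0.903), LOC543058 (0.899), LOC100037594 (0.893), LOC543217 (0.879) and LOC606346 (0.871). Of these only LOC100037594 has a readable name, DMAS1, which in cereals denotes deoxymugineic acid synthase, an enzyme of iron acquisition. Without control 24 HAF replicate 2 their r was 0.398 to 0.623, so the likeness to waxy rested largely on that array. Of the other probe sets, 70 had an r above 0.9 to waxy and 224 below -0.9 over 10 arrays, and over the 9 arrays there were 4 of each.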

How the data were processed

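Total RNA was extracted from whole developing seeds and hybridised to 1 Affymetrix wheat array per sample, per the labels' protocols. The deposited table holds log2 expression values for 61290 probe sets, made by the authors with affy and RMA per the submitters' processing notes. RMA normalizes between arrays, but the deposited arrays did not share 1 distribution: quantile normalization moved the log2 difference of control 48 over 24 HAF to 0.64 for AGP-S and 0.19 for waxy, against 0.95 and 0.33 as deposited. The versions of affy and RMA were not given in the sources used here, and the values were used as deposited.

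After 111 control probe sets were left out, 61179 were tested, of which 1273 carried 1 gene symbol, 0 several and 59906 none. The main test was limma (version 3.58.1, R 4.3.3) with 1 mean for each of the 5 groups, a variance trend on intensity (residual degrees of freedom 5, prior 3.59) and Benjamini-Hochberg adjustment over all tested probe sets at a threshold of 0.05. Intervals are 95% intervals from that fit. Exact permutation tests, two-sided, exchanged labels within a time or a treatment. The limma and permutation steps were tested on simulated data with equal spread in all groups, so uneven spread such as that of AGP-S was not covered.

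Every member probe set is named. For likeness, the rule took the 5 annotated genes with the highest Pearson r to each member, each gene by its brightest probe set. Starch synthesis, supply and breakdown lists and marker lists were matched on symbols and synonyms. The members and lists were chosen with earlier results of these data known. Alternatives were each array left out, a replicate block, 2 further scalings, a filter on dim probe sets, no intensity trend, the 8 arrays of 48 and 72 hours only, and array weights. A crossed replicate block and a fit without 2 arrays that stand apart were added after seeing the data.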

Additional observations from a re-analysis of the deposited data

How the results depend on the processing

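Neither AGP-S nor waxy passed the threshold of 0.05 in any of the 8 comparisons under any setting run, the replicate block included, which left all differences in place (drought over control at 72 HAF -0.061 for AGP-S and 0.085 for waxy, adjusted p = 1) and called 0 probe sets. Of the 142 differences of the 2 genes under settings other than leaving out 1 array, 139 kept their direction. That count says little about stability, since most of these settings could not move a difference of group means. The replicate blocks, the filter on dim probe sets, the fit without intensity trend and the fit on 8 arrays left each difference unchanged by design. Array weights did too, as both arrays of a group received the same weight. Without the 2 arrays that stand apart, a setting chosen after seeing the data, AGP-S differed by 0.74 for drought at 72 HAF and by 0.63 for the change of the drought effect, and with arrays shifted to a common median waxy differed by -0.024 for drought 72 over 48 HAF. Leaving out 1 array in turn gave, for AGP-S, 0.031 to 0.19 for drought at 48 HAF, -0.94 to 0.82 at 72 HAF, -0.42 to 0.46 for their mean and -1.05 to 0.71 for their difference. It gave 0.13 to 1.77 for control 48 over 24 HAF, -0.56 to 1.20 for control 72 over 48 HAF, -0.65 to 0.94 for drought 72 over 48 HAF and -0.21 to 0.67 over both treatments. For waxy it gave -0.17 to 0.088, 0.047 to 0.12, -0.045 to 0.087 and -0.0028 to 0.26 for the 4 drought comparisons. For the 4 time comparisons of waxy, in the same order as for AGP-S, it gave 0.16 to 0.50, -0.14 to 0.0078, -0.067 to 0.20 and -0.066 to 0.065. The cause was not tested. The number of called probe sets was 0 to 2 for drought at 48 HAF and for control 72 over 48 HAF (2 without control 48 HAF replicate 2), 0 to 2 for 72 over 48 HAF over both treatments (2 without control 72 HAF replicate 1), and 0 to 25621 for control 48 over 24 HAF (25621 without control 24 HAF replicate 1, 1 without control 48 HAF replicate 2). Replicate differences correlated between groups at -0.519 to 0.586, with mixed signs, so whether the replicate numbers pair the samples was not settled. A crossed replicate block, added because drought and control correlated at -0.489 and -0.519 within 48 and 72 HAF, called 0 probe sets in all 8 comparisons. With no signal over background in the files, detection of dim probe sets could not be judged.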

Other observations

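The array holds 5104 clusters of exactly 2 probe sets by the cluster number in the probe set ID. In 2374 of them both probe sets exceeded the mean level of all probe sets (4.69 on the log2 scale) on at least 1 array. The median r of these pairs over the 10 arrays was 0.768, and 21.6% of them had a lower r than the 0.258 of the AGP-S probe set and Ta.242.2.S1_at. With an SD of 3.36 over the 10 arrays, Ta.242.2.S1_at was one of 17 of the 61179 tested probe sets with an SD as large or larger. Of the endosperm markers, the gliadin Gli-1 varied as widely, with an SD of 3.40.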
